A study of Homo sapiens with 9 samples.

Results

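Imprinted genes are expressed from the copy inherited from one parent only, and the 10 listed here were read out in OVCAR3 cells with raised or lowered *CTCFL*. The members were chosen by name from a list of imprinted genes. The rule held no measured value, but earlier results of these data were known when they were chosen. The study had already reported *H19* as differentially expressed both with *CTCFL* raised and with it lowered. The members were found by their Ensembl identifiers among the 60660 genes of the deposited count matrix. They are *H19*, *IGF2*, *CDKN1C*, *KCNQ1OT1*, *MEG3*, *PEG3*, *PEG10*, *MEST*, *PLAGL1* and *SNRPN*. Of these, 7 had enough counts to be among the 17794 genes tested, and *IGF2*, *MEG3* and *PEG3* did not. By GENCODE 44 on GRCh38, 4 of the members lie on the short arm of chromosome 11, all on the minus strand: *H19* (chr11:1995166-2004552), *IGF2* (chr11:2129112-2158391), *KCNQ1OT1* (chr11:2597308-2700003) and *CDKN1C* (chr11:2883213-2885775). *PEG10* (chr7:94656325-94669695) and *MEST* (chr7:130486171-130506465) share chromosome 7, and *PLAGL1* (chr6:143940300-144064599), *MEG3* (chr14:100779410-100861031), *SNRPN* (chr15:24823637-24978723) and *PEG3* (chr19:56810077-56840728) lie apart. *H19*, *KCNQ1OT1* and *MEG3* are long noncoding RNA genes, and the other 7 are protein-coding.

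Imprinted genes lie in clusters, each ruled by a control region whose DNA is methylated on one parental copy only. Between *H19* and *IGF2* this region holds repeated sites for CTCF, a zinc finger protein that insulates *IGF2* from enhancers beside *H19*. CTCF binds the unmethylated maternal copy, from which *H19* is expressed, and methylation of the paternal copy blocks binding and leaves *IGF2* active there. CTCFL, also named BORIS, is a paralog of CTCF that is normally found in the male germline, has a DNA-binding domain much like that of CTCF and recognises the same sites. Counts of reads per gene do not separate the parental copies, so the values below are total RNA levels and not a measure of imprinting.

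OVCAR3 is a human cell line from a high-grade serous ovarian carcinoma, and it was grown in RPMI-1640 to which serum (20%) and bovine insulin (0.01 mg/ml) were added. Control, CTCFL-OE and CTCFL-KD had 3 libraries each, and each library pooled 3 technical replicates of one biological replicate. CTCFL-OE cells were transiently transfected with 2 µg of a plasmid expressing *CTCFL* and were harvested after 48 h. Control cells have no *CTCFL* treatment in their labels, and the study's methods give them a LacZ plasmid handled in the same way. CTCFL-KD RNA came from knockdown experiments of an earlier publication. In CTCFL-KD against Control and in CTCFL-KD against CTCFL-OE, the treatment and the separate experiment therefore cannot be told apart. Both comparisons with Control use the same 3 Control libraries. In bulk RNA, a lower level can come from fewer expressing cells or from less RNA per cell, which cannot be told apart.

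The libraries held between 14332622 and 24490080 counts. Levels are given in CPM with library sizes scaled by TMM, and a count of 0 allows up to 3 counts, or between 0.116 and 0.27 CPM. A gene was called where its log2 fold change lay beyond 1 and its adjusted p lay under 0.1 in CTCFL-OE against Control, or under 0.05 in the comparisons of CTCFL-KD. *CTCFL* itself had 6, 9 and 10 counts in Control, 36, 34 and 72 with CTCFL-OE and 0, 1 and 0 with CTCFL-KD. These groups did not overlap and followed the labels. The ratio of the summed *CTCFL* counts of Control to those of CTCFL-KD was 17.6 after scaling for depth, with an exact 95% interval of 2.89 to 724 that covers counting error only. *CTCF* ranged from 77.3 to 85.0 CPM in Control, from 64.7 to 77.8 CPM in CTCFL-OE and from 54.1 to 63.9 CPM in CTCFL-KD, and it was called in neither comparison with Control. All 10 markers of ovarian carcinoma epithelium were present, and their summed level was 5380 to 5500 CPM in Control, 4670 to 5070 CPM in CTCFL-OE and 9180 to 14700 CPM in CTCFL-KD. The 10 fibroblast markers summed to 27.7 to 33.7 CPM in Control, 24.9 to 43.9 CPM with CTCFL-OE and 37 to 42.1 CPM with CTCFL-KD. Of the 3 tested, *COL1A2* was called higher in CTCFL-KD, with 0 counts in every Control library and 156, 239 and 247 there, while *COL1A1* and *FAP* were not called at -0.36 and -0.05. The 8 leukocyte and endothelial markers summed to 7.38 to 7.84 CPM in Control, 9.44 to 11 CPM with CTCFL-OE and 6.01 to 7 CPM with CTCFL-KD. Of these, *PECAM1* was called lower at -2.56 in CTCFL-KD, and the defining markers *CD3E* and *CD68* never passed 1 count. The part of these shifts in the results below was not tested. CTCFL-KD replicate 1 stood apart with the lowest TMM factor, 0.775 against 0.945 to 1.09 in the other libraries. Where it moved a call, a sign or much of a value, the value without it is given for many genes but not for all. Mitochondrial genes took 6.16% to 6.52% of the counts of Control libraries, 7.4% to 14.9% with CTCFL-OE and 7.8% to 11.8% with CTCFL-KD, which does not overlap Control in either group, and the part of this in the results was not tested.

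The CTCF sites upstream of *H19* are shown first, since they are what links CTCF and CTCFL to this locus. The GRCh38 sequence was searched on both strands for a 14-base CTCF core motif in the 10 kb upstream of 1 transcript start per member, the one that more of its annotated transcripts share than any other or, at a tie, the most upstream. For *H19*, on the minus strand of chromosome 11, this start is base 1997842, which 7 of 31 transcripts share. The window held 5 matches, between 2126 and 5177 bases upstream of the start, all on the strand of *H19*. Each is shown with 13 bases on either side, in the orientation of *H19*, and the capitals mark the motif. Its letters are those of the capitals, except that positions 6 and 9, counted from 1 at its 5′ end, may be any base.

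H19 site 1, chr11:1999955-1999994, minus strand: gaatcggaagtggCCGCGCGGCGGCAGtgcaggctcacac

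H19 site 2, chr11:2000767-2000806, minus strand: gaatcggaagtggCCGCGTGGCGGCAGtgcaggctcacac

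H19 site 3, chr11:2002200-2002239, minus strand: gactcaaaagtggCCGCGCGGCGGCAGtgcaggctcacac

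H19 site 4, chr11:2002601-2002640, minus strand: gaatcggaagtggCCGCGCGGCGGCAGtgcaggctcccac

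H19 site 5, chr11:2003006-2003045, minus strand: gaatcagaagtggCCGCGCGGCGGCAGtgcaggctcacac

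The sites form a repeat, since 37 to 39 of the 40 bases of sites 2 to 5 were the same as in site 1. Each motif held CpG dinucleotides, the bases at which DNA is methylated, with 3 in site 2 and 4 in each of the other sites. When chromosomes 1 to 22 and X were divided into 291139 windows of 10 kb, 0.0903% of the windows held a match. Only 2 windows held more than 1 match, and the window with the most, 4 matches, was itself the one upstream of *H19*, where a window boundary leaves site 1 out. The long annotated extent of *H19* in GENCODE 44, chr11:1995166-2004552, runs across all 5 sites. Among the other members, *CDKN1C* had 1 match, 615 bases upstream of its start, and the other 8 had none in their windows. The *CDKN1C* site is shown for comparison with the repeat. For *IGF2* and *MEST* every transcript has a start of its own, so the 10 kb upstream of all annotated starts were also searched, which added no match for any member.

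CDKN1C site 1, chr11:2886377-2886416, minus strand: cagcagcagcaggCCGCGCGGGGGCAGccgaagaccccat

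Outside the motif the *CDKN1C* site did not resemble the repeat, with 23 of its 40 bases the same as in *H19* site 1. A match describes the letters of the sequence and is not a measurement of binding, and the absence of a match says nothing of binding either.

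**Figure D1:**
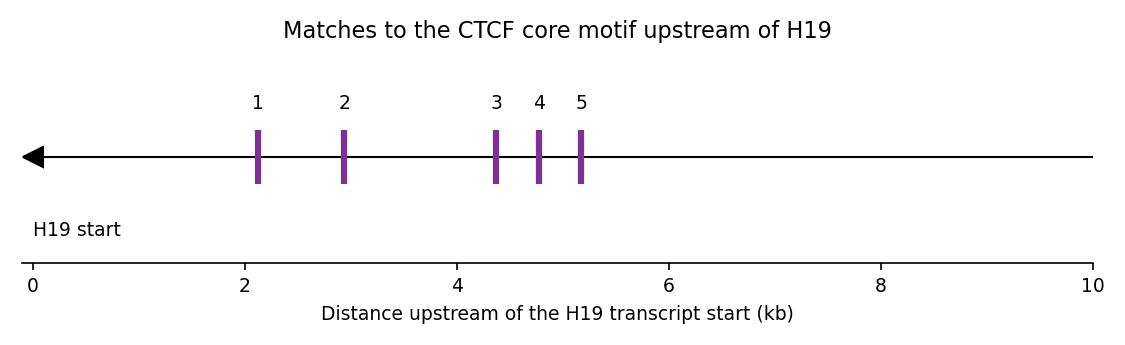
Positions of the 5 matches to the CTCF core motif (numbered ticks) along the 10 kb upstream of the *H19* transcript start, with distance in kb on the x axis and transcription running towards the left. The matches lie between 2126 and 5177 bases from the start, and the rest of the window holds none.

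*H19* is a long noncoding RNA expressed from the maternal copy. It had 253, 343 and 262 counts in the Control libraries, 92, 20 and 22 counts in CTCFL-OE and 1652, 1675 and 1556 counts in CTCFL-KD. Scaled for depth, the levels were 12.7, 13.3 and 13.3 CPM in Control, 4.19, 1.04 and 1.35 CPM in CTCFL-OE and 149, 99.4 and 85.1 CPM in CTCFL-KD. Every CTCFL-OE library lay below every Control library and every CTCFL-KD library lay above, so that no groups overlapped. Control libraries differed little among themselves, whereas CTCFL-OE replicate 1 kept several times the level of the other CTCFL-OE libraries. In that library *CTCFL* stood at 1.64 CPM, beside 1.77 and 4.42 CPM in replicates 2 and 3.

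In CTCFL-OE, *H19* was 5.82-fold lower than in Control, with a log2 fold change of -2.54 (SE 0.43, n = 3 per group, adjusted p = 0.0246 in the quasi-likelihood test of edgeR, adjusted by Benjamini-Hochberg over all genes tested). It was the only one of the 7 tested members that was called, beside 0.702% of all genes tested that were called lower and 2.07% called in either direction. Of all tested genes, 0.157% had a larger change in this comparison. The size of the fall held without each library in turn, between -3.46 and -2.21, but the call did not. Without Control replicate 1, 2 or 3 the adjusted p of edgeR was 0.106, 0.112 and 0.119, and without CTCFL-OE replicate 2 or 3 it was 0.105 and 0.113. Without CTCFL-OE replicate 1 it was called, at -3.46.

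In CTCFL-KD, *H19* was 8.49-fold higher than in Control, with a log2 fold change of 3.09 (SE 0.41, n = 3 per group, adjusted p = 0.000267 in edgeR). Calls were common in this comparison, with 15.3% of all tested genes called higher, 7.94% called lower and 23.2% called in all, and 2.51% of tested genes had a larger change than *H19*. The rise was as clear without CTCFL-KD replicate 1, at 2.82 on the log2 scale, and was called without each library in turn. Between CTCFL-KD and CTCFL-OE, where 17.0% of all tested genes were called, *H19* and *MEST* were called higher in CTCFL-KD and *PLAGL1* lower. *H19* differed by 5.63 on the log2 scale (SE 0.47, adjusted p = 2.73e-05 in edgeR), which is 49.4-fold. A larger difference between these groups was found in 0.438% of all tested genes.

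**Figure D2:**
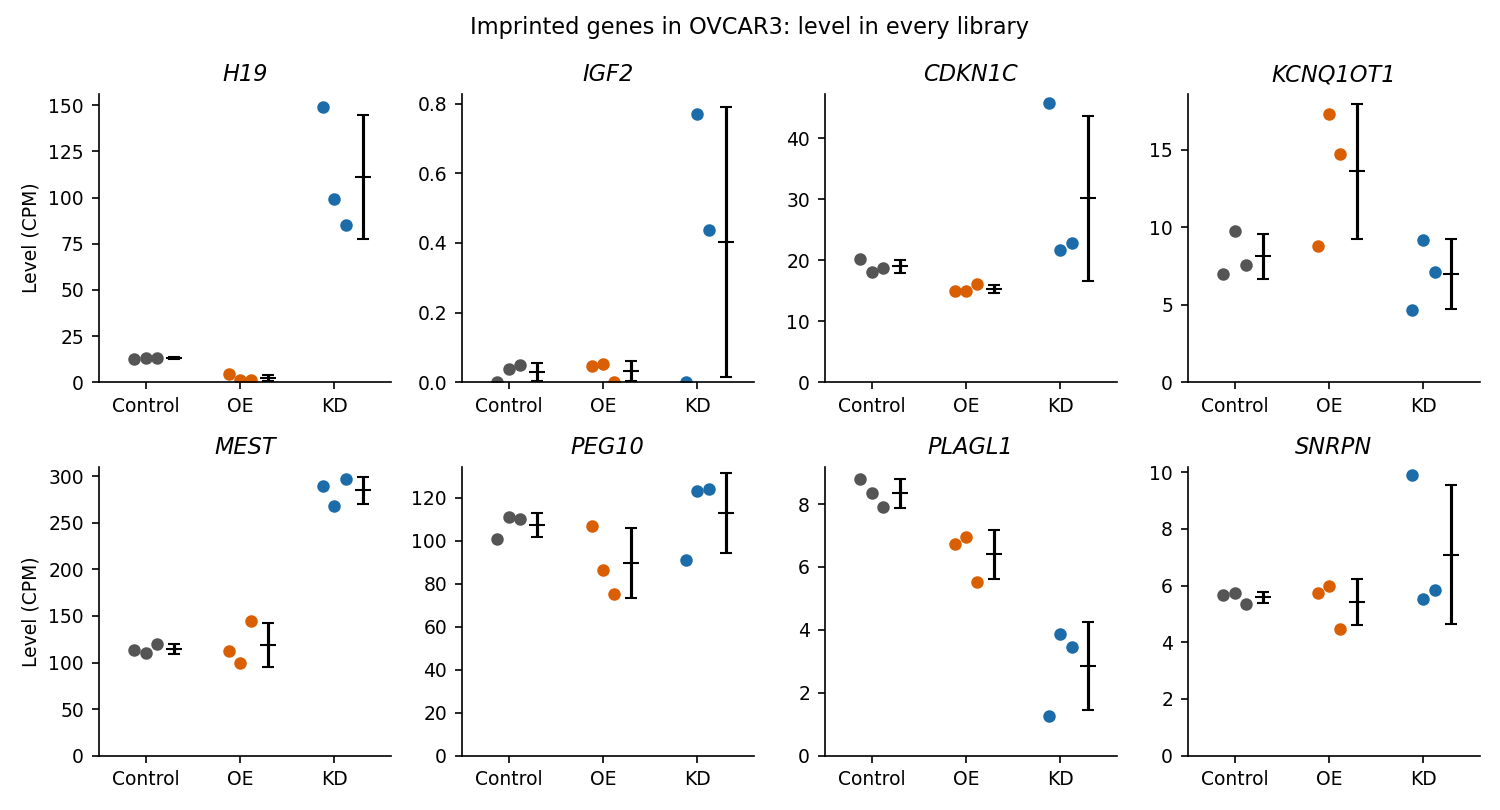
Level in CPM (y axis, linear, from 0, scaled separately for each gene) of *IGF2* and the 7 tested members in every library of Control, CTCFL-OE (OE) and CTCFL-KD (KD), with the mean ± SD of 3 libraries beside the points. *H19* lies at 12.7 to 13.3 CPM in Control, below 4.2 in CTCFL-OE and above 85 in CTCFL-KD, while *IGF2* stays under 0.8 CPM throughout.

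*H19* is also the host of *MIR675*, whose hairpin lies within its exons. The mature sequences from RefSeq (GRCh38.p14) are shown because the host was called in both comparisons with Control, and the capitals mark the seed, bases 2 to 8, with which a miRNA pairs with its targets.

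hsa-miR-675-5p, chr11:1996800-1996822, minus strand: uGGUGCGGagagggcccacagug

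hsa-miR-675-3p, chr11:1996768-1996787, minus strand: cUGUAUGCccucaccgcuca

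The arms have different seeds. The separate row of *MIR675* in the count matrix was at 0 in all 9 libraries, which were made from mRNA, so the level of the mature miRNA was not measured.

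*IGF2*, a fetal growth factor expressed from the paternal copy, was close to absent. It had 0, 1 and 1 counts in Control, 1, 1 and 0 counts in CTCFL-OE and 0, 13 and 8 counts in CTCFL-KD. Libraries of all groups overlapped at 0, and the few reads of CTCFL-KD came from replicates 2 and 3. In sum, CTCFL-KD held 21 counts and Control 2, a depth-scaled ratio of 14.9 with an exact 95% interval of 3.64 to 131, which covers counting error and not the spread between libraries. Against CTCFL-OE, which also held 2 counts, the ratio was 13 (3.19 to 115). *IGF2* did not pass the low-count filter. Where no filter was used it was called higher in CTCFL-KD, with an adjusted p of 0.00112 in edgeR and of 0.0432 in DESeq2. The highest *IGF2* level in any library was 0.772 CPM, and the mean level in CTCFL-KD was 0.403 CPM beside 111 CPM for *H19*. As a limit of the counting, 43.2% of the exon bases of *IGF2* are shared on the same strand with other annotated genes, among them *INS-IGF2*, which was at 0 in all libraries.

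*MEG3*, a maternally expressed long noncoding RNA, and *PEG3*, a paternally expressed zinc finger gene, had 0 counts in all 9 libraries. Their level was therefore below what 3 counts give, and no difference between groups was detectable at this depth. Their annotated partners *DLK1*, *MEG8* and *ZIM2* had at most 1 count in any library.

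*CDKN1C* and *KCNQ1OT1* belong to the cluster next to that of *H19*, on the same arm of chromosome 11, with a control region of its own. *CDKN1C* encodes the cyclin-dependent kinase inhibitor p57 and is maternally expressed. It lay at 20.2, 18.0 and 18.8 CPM in Control, at 14.9, 15 and 16.1 CPM in CTCFL-OE and at 45.8, 21.7 and 22.9 CPM in CTCFL-KD. Although the groups did not overlap, it was called in neither comparison with Control, at log2 fold changes of -0.31 (SE 0.26, adjusted p = 0.561) in CTCFL-OE and 0.66 (SE 0.26, adjusted p = 0.0686) in CTCFL-KD by edgeR. CTCFL-KD replicate 1 carried much of the latter value, which was 0.23 without it. Between CTCFL-KD and CTCFL-OE the difference of 0.97 (SE 0.26) had an adjusted p of 0.0207 in edgeR but did not reach a log2 fold change of 1, and it was 0.54 without CTCFL-KD replicate 1. It was called without CTCFL-KD replicate 2 or 3, at 1.13 in each case.

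*KCNQ1OT1* is a paternally expressed antisense RNA that silences its neighbours on the same chromosome copy. It lay at 7, 9.78 and 7.54 CPM in Control, at 8.79, 17.3 and 14.7 CPM in CTCFL-OE and at 4.68, 9.20 and 7.11 CPM in CTCFL-KD. Each treated group overlapped Control. Its log2 fold change was 0.74 in CTCFL-OE (SE 0.29, adjusted p = 0.225, 95% interval 0.09 to 1.39) and -0.20 in CTCFL-KD (SE 0.30, adjusted p = 0.619, 95% interval -0.86 to 0.46) by edgeR. Without CTCFL-KD replicate 1 the latter was 0.0045, so its sign rested on that library. Between CTCFL-KD and CTCFL-OE, whose libraries overlapped, the difference of -0.94 (SE 0.30) had an adjusted p of 0.0386 in edgeR and was not called. It was called without CTCFL-OE replicate 1, at -1.18, and without CTCFL-KD replicate 2, at -1.20, while its adjusted p in edgeR reached 0.145 without CTCFL-OE replicate 2.

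*MEST*, paternally expressed and encoding a protein of the alpha/beta hydrolase fold, was the most abundant member and was higher in CTCFL-KD. It lay at 113, 110 and 120 CPM in Control, at 112, 100 and 145 CPM in CTCFL-OE and at 289, 268 and 297 CPM in CTCFL-KD. The CTCFL-KD libraries lay above all others and close together, whereas CTCFL-OE overlapped Control. The change in CTCFL-KD was 2.49-fold, a log2 fold change of 1.31 (SE 0.18, adjusted p = 0.00035 in edgeR), and it was 1.31 also without CTCFL-KD replicate 1. In CTCFL-OE the log2 fold change was 0.06 (95% interval -0.34 to 0.46). *MEST* shares 27.6% of its exon bases with genes on the other strand, among them *MESTIT1* and *COPG2*. *MESTIT1* had at most 9 counts in a library, and *COPG2* had a mean of 33.9 CPM in Control and 34.9 CPM in CTCFL-KD and was not called. An intron of *MEST* holds *MIR335*, whose arms are shown with the seed in capitals for comparison with those hosted by *H19*.

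hsa-miR-335-5p, chr7:130496126-130496148, plus strand: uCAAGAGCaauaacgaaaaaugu

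hsa-miR-335-3p, chr7:130496162-130496183, plus strand: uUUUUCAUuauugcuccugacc

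None of the seeds is shared between the arms of *MIR335* and *MIR675*, and the row of *MIR335* was at 0 in all libraries, as was that of *MIR675*.

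*PLAGL1*, a paternally expressed zinc finger transcription factor that restrains the cell cycle, was lower in CTCFL-KD. It lay at 8.80, 8.34 and 7.89 CPM in Control, at 6.74, 6.94 and 5.52 CPM in CTCFL-OE and at 1.26, 3.86 and 3.44 CPM in CTCFL-KD. The groups did not overlap, and CTCFL-KD replicate 1 was the lowest library. In CTCFL-KD it was 2.85-fold lower, a log2 fold change of -1.51 (SE 0.31, adjusted p = 0.00362 in edgeR), and it was called also without replicate 1, at -1.19. In CTCFL-OE the log2 fold change was -0.38 (95% interval -1.03 to 0.27) and it was not called. The difference between CTCFL-KD and CTCFL-OE, -1.13 (SE 0.31, adjusted p = 0.0224 in edgeR), was called, but at -0.81 without CTCFL-KD replicate 1 it was not. It was also not called without CTCFL-OE replicate 1 or 2, with an adjusted p of 0.0593 and 0.0707 in the same edgeR test.

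*PEG10* and *SNRPN* were called in no comparison. *PEG10*, a paternally expressed gene derived from a retrotransposon, lay at 101, 111 and 110 CPM in Control, at 107, 86.6 and 75.2 CPM in CTCFL-OE and at 91.2, 123 and 124 CPM in CTCFL-KD. CTCFL-OE gave it a log2 fold change of -0.26 (95% interval -0.68 to 0.16) and CTCFL-KD one of 0.07 (95% interval -0.35 to 0.49). *SNRPN*, paternally expressed and encoding a protein of the splicing machinery, lay at 5.65, 5.74 and 5.36 CPM in Control, at 5.74, 6 and 4.48 CPM in CTCFL-OE and at 9.91, 5.52 and 5.85 CPM in CTCFL-KD. Groups overlapped for both genes, and the highest *SNRPN* value was that of CTCFL-KD replicate 1. The log2 fold change of *SNRPN* was -0.04 in CTCFL-OE (95% interval -0.58 to 0.50) and 0.33 in CTCFL-KD (95% interval -0.21 to 0.87), or 0.03 without that library. Of its exon bases, 43.9% are shared on the same strand with other genes. Among them are *SNURF*, which had at most 4 counts in a library, and *SNHG14*, which shares 141 bases and had 95 to 746 counts.

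**Figure D3:**
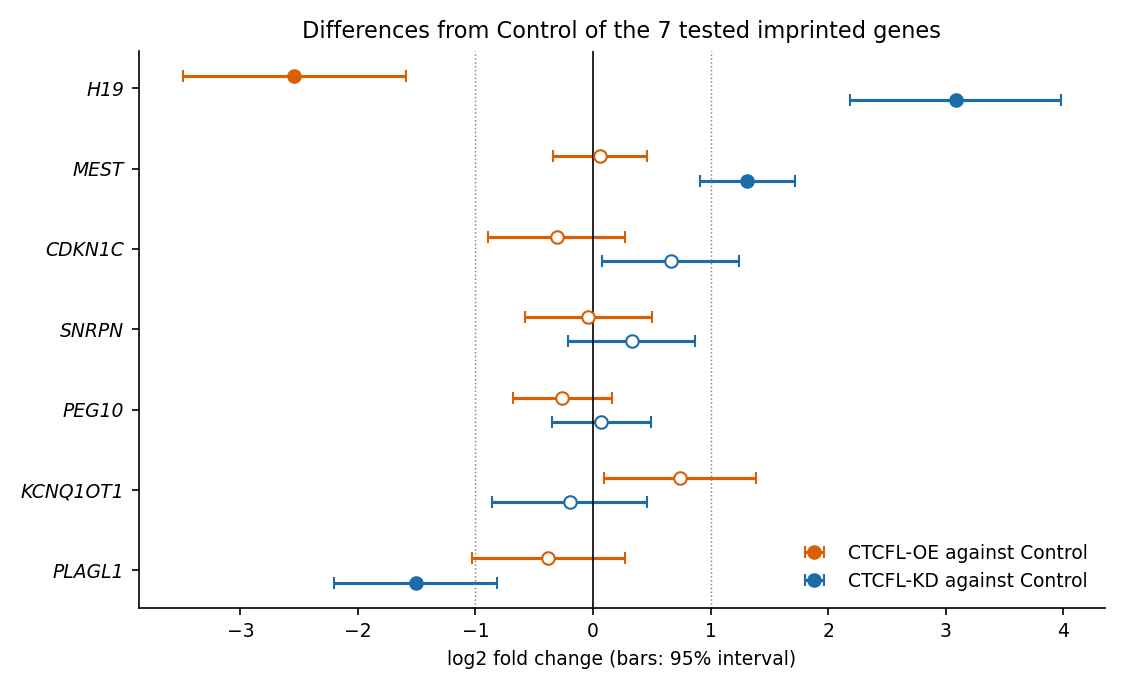
Log2 fold change (x axis) of the 7 tested members in CTCFL-OE (orange) and CTCFL-KD (blue) against the same 3 Control libraries, with 95% intervals of the edgeR fit, filled points for called genes and dotted lines at a log2 fold change of 1 in either direction. *H19* lies at -2.54 in CTCFL-OE and at 3.09 in CTCFL-KD, *MEST* and *PLAGL1* are called in CTCFL-KD alone, and the intervals of *PEG10* and *SNRPN* include 0 in both.

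Of the 7 tested members, 2 were called higher (*H19*, *MEST*) and 1 lower (*PLAGL1*) in CTCFL-KD, beside 23.2% of all tested genes called in either direction. Their median log2 fold change was -0.26 in CTCFL-OE and 0.33 in CTCFL-KD, where the medians of all tested genes were -0.01 and 0.08. Without CTCFL-KD replicate 1 the latter median of the members was 0.20 and that of all genes 0.01. The 3 CTCFL-OE libraries lay below all Control libraries for *H19*, *CDKN1C* and *PLAGL1*, as for 20.8% of all tested genes. The 3 CTCFL-KD libraries lay above all Control libraries for *H19*, *CDKN1C* and *MEST*, as for 28.7% of all tested genes, and below for *PLAGL1*, as for 27.6%. Among the paternally expressed members *MEST* rose and *PLAGL1* fell in CTCFL-KD, and of the maternally expressed members *H19* alone was called.

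Levels of different genes were compared as CPM per kb of exon. In Control the order of mean levels was *MEST* (24 CPM per kb), *PEG10* (16.1), *CDKN1C* (7.67), *H19* (3.78), *SNRPN* (1.64), *PLAGL1* (1.30), *KCNQ1OT1* (0.0875) and *IGF2* (0.00417), and the libraries of no neighbours in this order from *MEST* to *IGF2* overlapped. In CTCFL-OE, *H19* stood below *SNRPN* and *PLAGL1* at 0.634 CPM per kb, and its libraries, at 0.300 to 1.21, overlapped those of *PLAGL1*. In CTCFL-KD, *H19* stood second to *MEST* (59.7) at 32.1 CPM per kb, and the libraries of *PEG10* and *CDKN1C*, and those of *KCNQ1OT1* and *IGF2*, overlapped. The value of *KCNQ1OT1* is spread over 92625 annotated exon bases and depends on that length.

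The genes whose pattern was most like that of *H19* over the 9 libraries were *TMCC2* (r = 0.99), *RAI2* (0.989) and *STX19* (0.989), by Pearson correlation of log2 CPM among 15365 tested genes with a mean of at least 1 CPM. *RAI2*, for instance, had means of 10.8 CPM with Control, 5.79 with CTCFL-OE and 28.5 with CTCFL-KD. None of them is a neighbour of *H19*, since they lie on chromosomes 1, X and 3. For *IGF2* the most alike were *PPARA*, *PSD3* and *TARBP1*, but its counts were too few to read a likeness from. The points fall into 3 groups of libraries and share their library sizes, so these values describe the pattern and carry no test.

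The neighbourhood of *H19* in band 11p15.5 was described from a list of 19 genes near the members there, of which 12 were tested. In CTCFL-OE none of the 12 was called in either direction, beside 2.07% of all tested genes, and their median log2 fold change was 0.19. In CTCFL-KD, 5 were called higher and none lower, beside 15.3% and 7.94% of all tested genes, with a median of 0.50. *KCNQ1*, a maternally expressed potassium channel gene that contains *KCNQ1OT1* in reverse, rose by 2.63 (SE 0.26, adjusted p = 3.6e-05), from 18 counts in each Control library to 69, 77 and 89. *ASCL2*, a transcription factor, rose by 2.58 from 10, 7 and 8 counts to 48, 26 and 26 (adjusted p = 0.00222), and *SLC22A18*, a maternally expressed transporter gene, by 2.29 (adjusted p = 0.00103), all on the log2 scale by edgeR. The other 2 were *CTSD*, which encodes the lysosomal protease cathepsin D, at 2.10 (814, 195 and 203 CPM, beside 93.0 to 94.8 CPM in Control) and *CD81*, a tetraspanin gene, at 1.75. Nearest to *H19* on either side among the tested genes of the list were *MRPL23*, whose log2 fold change was -0.26 with CTCFL-OE and 0.50 with CTCFL-KD, and *ASCL2*, with 0.60 and 2.58. Maternally expressed *PHLDA2*, which limits placental growth, had -0.45 in each comparison and was not called. It lay at 34.1, 30.9 and 34.0 CPM in Control and at 41.0 CPM in CTCFL-KD replicate 1, with 16.6 CPM or less in the other libraries of that group, so that the value in CTCFL-KD rested on replicate 1. Without CTCFL-KD replicate 1 it was the 1 gene called lower, at -1.03, and 5 were called higher, with a median of 0.36 over the list. Of all 18393 genes tested without that library, 2727 were called higher and 1337 lower. *CTSD* was then at 1.08, *ASCL2* at 1.93, *SLC22A18* at 1.73, *CD81* at 1.26 and *MRPL23*, not called, at -0.35.

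**Figure D4:**
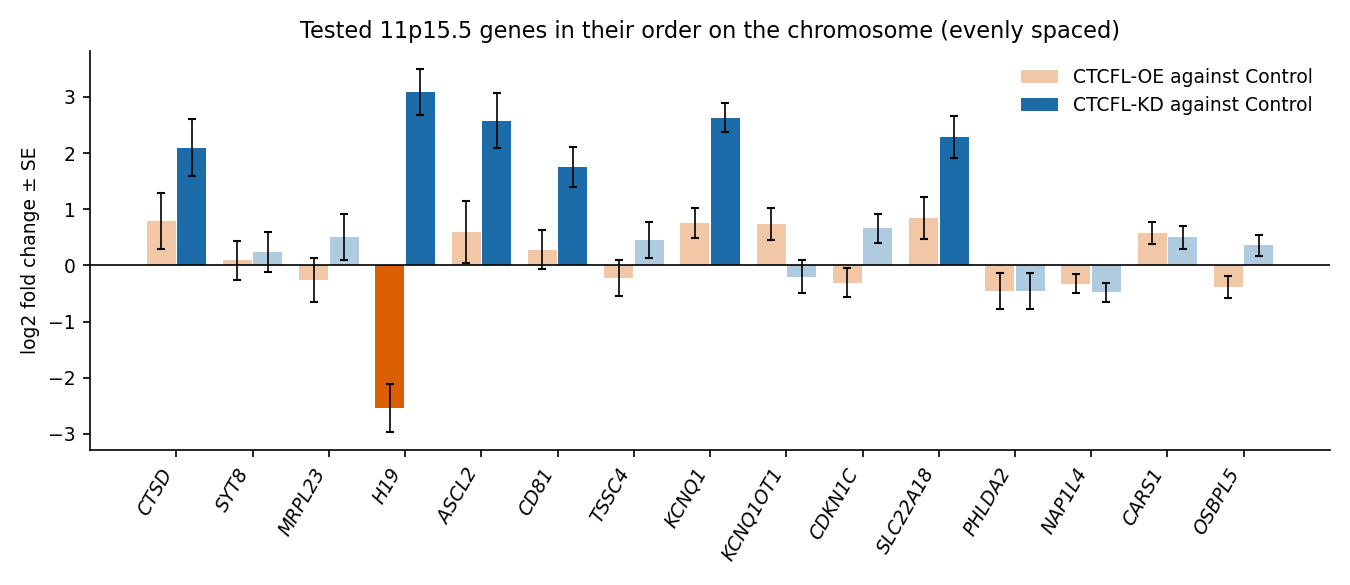
Log2 fold change ± SE (y axis) in CTCFL-OE (orange) and CTCFL-KD (blue) against Control of the tested 11p15.5 genes, members included, in their order along the chromosome but evenly spaced, with pale bars for genes that were not called. *H19* is the only gene called in CTCFL-OE, and 6 genes including *H19* are called higher in CTCFL-KD with uncalled genes between them.

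Other imprinted genes were read from lists of 20 paternally and 17 maternally expressed genes. Of the paternally expressed genes, 10 were tested and none was called in CTCFL-OE, where 2.07% of all tested genes were, with a median log2 fold change of 0.02. In CTCFL-KD 2 of them were called higher, *FAM50B* at 1.47 and *SGCE*, the neighbour of *PEG10* that encodes epsilon-sarcoglycan, at 1.29, and none was called lower, beside 15.3% and 7.94% of all tested genes. With CTCFL-KD replicate 1 left out, 11 were tested and 4 called higher, beside 2727 of all 18393 genes tested. *DIRAS3*, which was not among the 10, was then called at 1.93, *PEG13* gained a call at 1.01 and *FAM50B* was at 1.15. *SGCE* rose from 312, 440 and 312 counts to 503, 606 and 679 while *PEG10*, which starts beside it on the other strand, was not called. Of the maternally expressed genes, 12 were tested and none was called in CTCFL-OE, with a median of -0.36. In CTCFL-KD 3 were called higher and 2 lower, against the same background of 15.3% and 7.94%, with a median of -0.05. Of the 13 tested when CTCFL-KD replicate 1 was left out, 4 were called higher and 3 lower, beside 2727 and 1337 of all 18393 genes tested. The median, 0.41, includes *KLF14* (0.56), which was not among the 12. *KCNQ1* and *SLC22A18* rose as given above, *ZNF331*, a zinc finger gene, rose by 1.60, *ATP10A*, a phospholipid flippase gene, fell by 2.68 and *CPA4*, a carboxypeptidase gene near *MEST*, fell by 1.29 on the log2 scale.

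With the members, 29 of 47 imprinted genes were tested. Of these, *H19* was the only one called in CTCFL-OE, where 2.07% of all tested genes were, and 7 were called higher and 3 lower in CTCFL-KD, where 15.3% and 7.94% of all tested genes were. Without CTCFL-KD replicate 1, 31 were tested and these counts were 10 and 4 in CTCFL-KD, and in CTCFL-OE *NNAT* was then called higher, beside *H19* lower. Of all genes tested without that library, 22.1% were called in CTCFL-KD and 5.33% in CTCFL-OE. The lists were chosen by name and share genes, such as *KCNQ1*, with the list of neighbours.

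**Figure D5:**
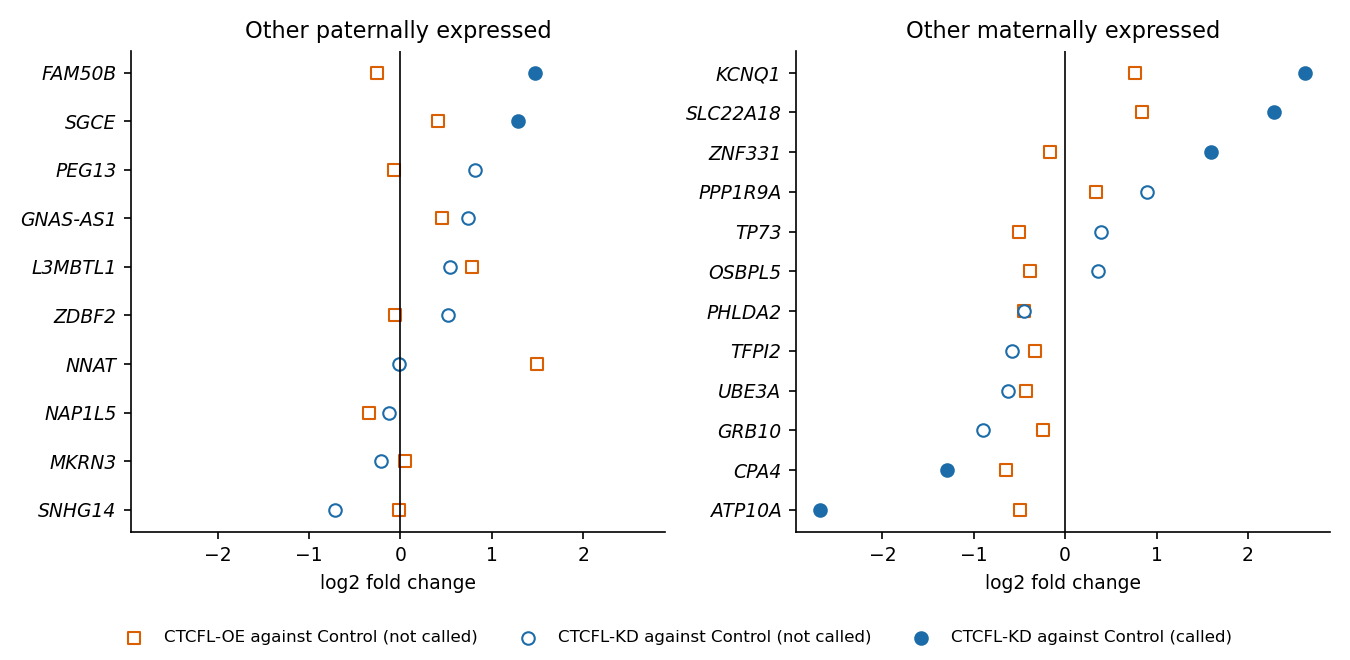
Log2 fold change (x axis) against Control of the 10 tested paternally and 12 tested maternally expressed imprinted genes that are not members, with squares for CTCFL-OE, circles for CTCFL-KD and filled symbols for called genes. No square is filled, while 5 circles are filled on the side of higher and 2 on the side of lower levels in CTCFL-KD.

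Beyond 11p15.5, 8 of 18 listed neighbours of the other members were tested. None was called in CTCFL-OE, beside 2.07% of all tested genes. *SGCE* was the only one called in CTCFL-KD, beside 15.3% of all tested genes called higher and 7.94% lower, and the median there was 0.07. *COPG2*, which ends against *MEST*, had a log2 fold change of 0.04 in CTCFL-KD, and *SNHG14*, the long host transcript that begins in the *SNRPN* region, had -0.72 (adjusted p = 0.0685 in edgeR). With CTCFL-KD replicate 1 left out, *SNHG14* had -0.41 and the median was 0.26. *PPP1R9A* was then called higher beside *SGCE*, where 2727 of all 18393 genes tested were called higher.

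Genes that set, keep or remove methylation at imprinted loci numbered 18, of which 16 were tested. The list includes *CTCFL*, the gene manipulated, whose calls followed from the treatment. *CTCFL* was the only one called in CTCFL-OE, beside 2.07% of all tested genes. In CTCFL-KD 3 were called lower, *CTCFL* among them, and none higher, beside 7.94% and 15.3% of all tested genes. The median, with *CTCFL* included, was -0.57, or -0.28 without CTCFL-KD replicate 1. Without that library 22.1% of all genes tested were called, and 3 of the list were again called lower. Apart from *CTCFL* these were *DNMT3B*, a de novo DNA methyltransferase, which fell by 2.22 (SE 0.21, adjusted p = 2.72e-05) from 1513, 1906 and 1521 counts to 149, 338 and 276, and *UHRF1*, which brings DNMT1 to newly replicated DNA, by 1.18 (SE 0.19, adjusted p = 0.000779), on the log2 scale by edgeR. *DNMT1*, the maintenance methyltransferase, had -0.62 (adjusted p = 0.051 in the same edgeR test) and was not called, and *TRIM28*, a cofactor of the zinc finger proteins that guard imprints, had 0.27. These were -0.38 and -0.12 without CTCFL-KD replicate 1, still not called. *ZFP57*, one of those proteins, was at 0 in all libraries, and *ZNF445*, another, was not called. DNA methylation itself was not measured.

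Of 14 genes that receive, bind or translate IGF2, 13 were tested. *INSR*, the insulin receptor, was the only one called in CTCFL-OE, where 2.07% of all tested genes were, and was higher by 1.10 (SE 0.21, adjusted p = 0.0389 in edgeR). In CTCFL-KD 2 were called higher and 3 lower, beside 15.3% and 7.94% of all tested genes, with a median of -0.17, or -0.08 without CTCFL-KD replicate 1. *IGF2BP1*, a fetal protein that binds *IGF2* and *H19* RNA, fell by 5.00 on the log2 scale, from 1985, 2773 and 2258 counts to 30, 59 and 68, and its relatives *IGF2BP2* and *IGF2BP3* were not called at -0.17 and -0.82. *IRS2* and *IRS1*, adaptors of the insulin and IGF receptors, fell by 1.99 and 1.40, and the binding proteins *IGFBP2* and *IGFBP6* rose by 2.41 and 1.93. *IGF2R*, which clears IGF2, was not called in either comparison at 0.73 and 0.63, and *IGF1R*, its signalling receptor, had 0.69 in CTCFL-OE and -0.98 in CTCFL-KD. Without CTCFL-KD replicate 1 there were 3 called higher and 3 lower in CTCFL-KD, beside 2727 and 1337 of all 18393 genes tested. *IGFBP6* at 1.10 lost its call while *IGFBP5* at 1.04 and *INSR* at 1.01 gained a call. *IGFBP2* at 1.93, *IRS2* at -1.75 and *IRS1* at -1.07 kept theirs. *IGF2BP3* was then at -0.39, and *IGFBP6* was called in CTCFL-OE beside *INSR*, where 5.33% of all genes tested without that library were called.

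The 6 relatives of *CDKN1C* were all tested. *CDKN2B*, an inhibitor of CDK4 and CDK6, was the only one called in the comparisons with Control, and it was lower in each, by 1.44 (SE 0.21, adjusted p = 0.0113) in CTCFL-OE and 2.73 (SE 0.22, adjusted p = 1.17e-05) in CTCFL-KD on the log2 scale by edgeR. Of all tested genes, 0.702% and 7.94% were called lower in these comparisons. *CDKN1B*, of the *CDKN1C* inhibitor family, had -0.01 and 0.30 and was not called. Between CTCFL-KD and CTCFL-OE, *CDKN1A*, also of that family, was called higher in CTCFL-KD at 1.22 and *CDKN2B* lower at -1.29, beside 17.0% of all tested genes called.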

How the data were processed

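RNA-seq of OVCAR3 cells was read from deposited counts of reads per gene, which the authors made from TruSeq stranded mRNA libraries by trimming with Trimmomatic, alignment to GRCh38 with STAR and counting with featureCounts. The submitters' processing notes also name kallisto. The deposited counts carry no normalization, and the counting's strand setting and its treatment of overlapping genes are not given in the sources used here. All 9 library files were equal to their matrix column. Groups were taken from the sample labels.

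Symbols, positions and exons came from GENCODE 44 on GRCh38, which named 60463 of 60660 identifiers. Genes were kept by filterByExpr, scaled by TMM and fitted with edgeR 4.0.16 in R 4.3.3 (glmQLFit with robust estimation, quasi-likelihood test) to all 9 libraries with condition as the only factor, and p-values were adjusted by Benjamini-Hochberg over all genes tested. The thresholds against Control are those of the study's methods, and that of CTCFL-KD was also used between CTCFL-KD and CTCFL-OE, a comparison those methods do not set a threshold for. The script was tested on simulated data. Alternatives to these choices were a Wald test by DESeq2 1.42.0, scaling by RLE or upper quartiles, testing with no filter or with a minimum of 10 counts per library, non-robust estimation, fits of the 2 groups compared alone, a replicate block, and leaving out each library. Tables and figures used Python 3.11.15, pandas 2.3.3, scipy 1.17.1 and matplotlib 3.10.9.

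All members were named. In the other lists at most 6 genes were named as the largest changes among called genes with at least 1 CPM in a group, and further genes were named after their values were seen. The members and lists were chosen with earlier results of these data known. Replicate numbers were checked for pairing over 11618 genes. Deviations from the group means of libraries with the same number had correlations of 0.385, 0.221 and 0.266 between Control and CTCFL-KD, all above 0.1, although the study describes separate experiments, and of -0.0441, 0.224 and -0.0489 between Control and CTCFL-OE, which do not pair. Total counts limit precision, and intervals from counts cover counting error only. miRNA sequences are those of RefSeq. The table of promoters was not used here.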

Additional observations from a re-analysis of the deposited data

How the results depend on the processing

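*H19*, *MEST* and *PLAGL1* were called in CTCFL-KD against Control under all 17 alternatives, at log2 fold changes of 2.82 to 3.24, 1.24 to 1.37 and -1.75 to -1.19. Of all genes fitted, 11.9% to 24.7% were called in that comparison under the alternatives. The number of members called in CTCFL-OE was 1 under every setting that kept all libraries, and 0 to 1 with one library left out, as *H19* lost its call without Control replicate 1, 2 or 3 or CTCFL-OE replicate 2 or 3. Its adjusted p in CTCFL-OE ranged from 5.15e-18 to 0.119 over the alternatives. Between CTCFL-KD and CTCFL-OE, 3 members were called, 5 without a low-count filter (with *IGF2* and *KCNQ1OT1*), and 2 to 5 with one library left out, *CDKN1C* and *KCNQ1OT1* each gaining a call without some libraries. Of all genes fitted, 17.0% were called there, 10.4% without a filter and 13.9% to 18.6% with a library left out. *PLAGL1* was also not called there when the groups were fitted alone (adjusted p = 0.0751 in edgeR's quasi-likelihood test). With the replicate number as a block, the calls of the members were 1 in CTCFL-OE, 3 in CTCFL-KD and 3 between them, as without the block, and the log2 fold change of *H19* was -2.73 in CTCFL-OE and 3.01 in CTCFL-KD. Values near 0 changed sign with one library left out. In CTCFL-OE, *MEST* ranged from -0.12 to 0.16 and *SNRPN* from -0.13 to 0.06, and in CTCFL-KD, *KCNQ1OT1* ranged from -0.43 to 0.0045 and *PEG10* from -0.01 to 0.20. *SNRPN* also changed sign with upper-quartile scaling (0.01) and *PEG10* without a low-count filter (-0.0002). The causes were not tested. DESeq2 and the fit without a filter called 4 members in CTCFL-KD, *IGF2* being the fourth, beside 11.9% and 13.6% of all genes fitted. Over all genes, calls in CTCFL-OE numbered 368, but 826 without a filter, 835 with the groups fitted alone, 44 to 61 without one Control library, 79 and 109 without CTCFL-OE replicate 2 or 3, 1184 without CTCFL-OE replicate 1 and 980 without CTCFL-KD replicate 1. Single outlying values within groups of 3 libraries were not tested. Depth limits *IGF2*, *MEG3* and *PEG3*, where a change between levels under 0.27 CPM could not be seen in every library.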
